A study of Homo sapiens with 4 samples.

Results

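The genes described here were 10 interferon-induced genes of antiviral defence, MX1, MX2, IFI44, IFI44L, IFI6, IFI27, IFI35, RSAD2, CMPK2 and XAF1. Their chromatin accessibility was read from ATAC-seq peaks that overlapped the gene body or the 10 kb upstream of it in the GENCODE annotation of GRCh38, and these stretches of 16149 to 60052 bp are called windows below. Of 59629 peaks in the WT list, 12 lay in the windows. The same held for 19 of 67470 peaks in WT-IFN-γ, 13 of 63203 in FLI1-KO and 12 of 59923 in FLI1-KO-IFN-γ. Merged over the 4 lists, they formed 21 of 93211 regions. ATAC-seq uses a transposase to cut and tag open DNA, and it was applied to HK1, an established human nasopharyngeal carcinoma line. WT cells carried no knockout, while FLI1-KO cells (sgFLI1) had lost the ETS transcription factor gene FLI1 through a guide RNA, and cells of both genotypes were either left as controls or given the cytokine interferon-γ (IFN-γ), for a day according to the study's legend. Each of the 4 groups held 1 library, so no test between groups was possible, and whether the FLI1-KO line was 1 clone is not stated in the sources used here. Peaks cannot reveal a guide-made deletion of few bases, and the genotype was not checked here. All intervals are 95% intervals of counting error within a library and say nothing of the spread between cultures.

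Interferons bind receptors on the cell surface and act through JAK kinases and the transcription factors that these kinases activate. Many of the genes they switch on carry an interferon-stimulated response element near the start, which is bound by interferon regulatory factors and holds repeats of the letters GAAA. The products act in the responding cell. MX1 and MX2 are dynamin-like GTPases that trap incoming viral particles, RSAD2 encodes the radical enzyme viperin, and CMPK2, its neighbour, is a mitochondrial nucleotide kinase.

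Letters of this type, GAAA repeats with a spacer of 1 or 2 bases, lay at the start of each of the 10 genes. The letters GAAANNGAAA (a spacer of 2 bases) and GAAANGAAA (a spacer of 1 base) were sought on either strand within 100 bp of the WT-IFN-γ summit (of the highest summit for the 2 regions WT-IFN-γ lacked), and matches may overlap. All 10 regions at a start held at least 1 match, 19 in all, and 0 of the 11 other regions in the windows held one. At the starts of MX2, XAF1, IFI35 and CMPK2 only the form with a spacer of 1 base was found. By comparison, 7.95% of the 67470 WT-IFN-γ peaks held either form (7.75 to 8.15%). The spacer of 2 bases was found in 5.60% and that of 1 base in 2.83%. Of the 16999 WT-IFN-γ peaks that overlapped no WT peak, 16.5% held either form, 13.4% the spacer of 2 bases and 4.42% that of 1 base. Either form was found in 6.40% of 35116 RefSeq promoters of GRCh38.p14. These promoters were searched over their whole listed sequence and not around a summit. Of the 10 genes, 9 had a promoter in the RefSeq table, and 14 of their 17 promoters held either form, at least 1 for each gene. Matches are letters in the reference sequence and no measure of binding. The stretches that carry them at 9 of the genes are shown because each lies within 100 bp of a summit described below; for CMPK2, the outer 2 of 3 are given. They are written 5′ to 3′ along the gene in GRCh38, and capitals mark the matches.
MX1, chr21:41420529-41420557, plus strand: caatttgactTTTCCTTTCtggaaaccag
MX1, chr21:41420557-41420585, plus strand: gcgagcaGAAATGAAACCGAAActgaatt
IFI44, chr1:78649757-78649799, plus strand: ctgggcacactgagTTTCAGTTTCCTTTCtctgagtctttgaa
IFI44L, chr1:78620270-78620307, plus strand: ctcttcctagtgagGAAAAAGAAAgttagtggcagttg
IFI6, chr1:27672262-27672362, minus strand: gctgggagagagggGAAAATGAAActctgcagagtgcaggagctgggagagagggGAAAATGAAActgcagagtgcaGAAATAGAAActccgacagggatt
IFI27, chr14:94110614-94110664, plus strand: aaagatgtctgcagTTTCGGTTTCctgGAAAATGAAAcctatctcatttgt
IFI35, chr17:43006758-43006786, plus strand: ggatttcacgGAAATGAAAgtggaagcaa
RSAD2, chr2:6877622-6877651, plus strand: ctgtttcaacTTTCAGTTTCacatgtggaa
CMPK2, chr2:6865757-6865785, minus strand: tccctccgggTTTCGTTTCccgccggcgc
CMPK2, chr2:6865815-6865843, minus strand: ggcctccggcTTTCGTTTCcccgcaacgc
XAF1, chr17:6756031-6756059, plus strand: ttgcctgcaaGAAACGAAActcaaccgaa

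The MX1 elements shown above lay at an upstream start of that gene, at -5700 to -5670 bp from the canonical start. The canonical MX1 start had no peak in any list, although it held 2 matches of its own, at -113 and -68 bp. They came from a separate search around that start, since no summit lay there.
MX1 canonical start, chr21:41426116-41426144, plus strand: aggagctaggTTTCGTTTCtgcgcccgga
MX1 canonical start, chr21:41426161-41426189, plus strand: ggtctgtgagTTTCATTTCttcgcggcgc

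Within the 100 bp searched, the matches lay between -63 and 88 bp of the WT-IFN-γ summit, as the plot of element positions shows. The ETS letters CCGGAAGT, of the kind FLI1 binds, were found in 0 of the 21 regions, against 1.28% of all WT-IFN-γ peaks. At so low a share most sets of 21 regions would hold none, so the 0 is uninformative. AP-1 letters (TGANTCA) were found in 3 regions, at the MX2 start, in MX2 intron 1 and near the 3′ end of MX1, against 23.5% of all WT-IFN-γ peaks. AP-1 letters share no match with either GAAA form.

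**Figure D1:**
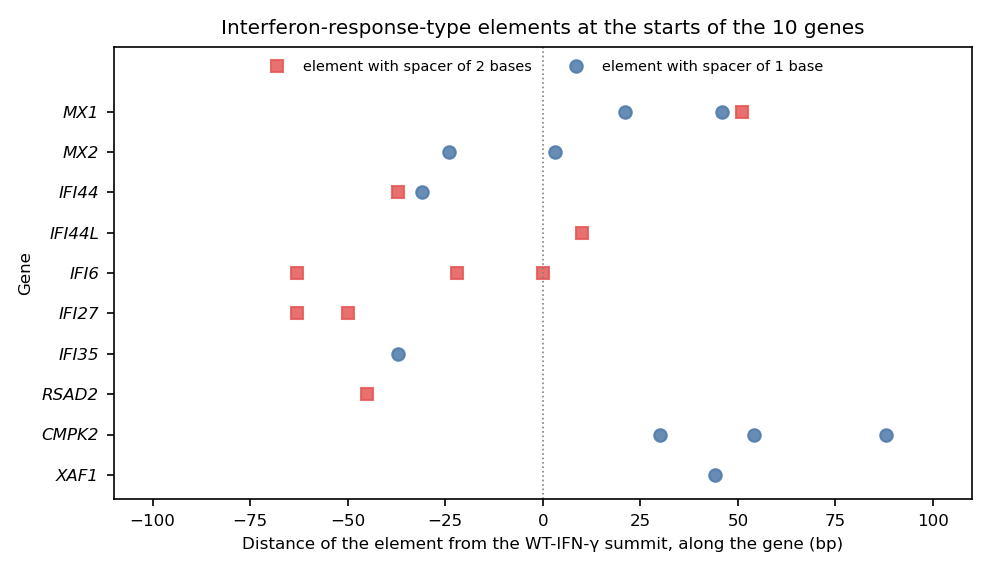
Position of each match to GAAANNGAAA (squares, spacer of 2 bases) and GAAANGAAA (circles, spacer of 1 base) relative to the WT-IFN-γ summit, in bp along the gene, at the starts of the 10 genes. The matches lie between -63 and 88 bp, and at IFI6 one of 3 begins at the summit itself.

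Depth was read from the whole number of tags over each summit (the summit pileup) and the background the peak caller expected there, which the deposited fold and −log10 p together give. The libraries had 6.86 to 8.84 background tags per kb, with WT-IFN-γ the deepest and FLI1-KO-IFN-γ the shallowest, 1.29 times apart. Pileups were divided by this tag density before libraries were compared. Promoters of 10 genes active in all cells had a peak in every list, with a median log2 ratio of -0.13 for WT-IFN-γ over WT and -0.28 for FLI1-KO-IFN-γ over FLI1-KO. Over all regions listed in both libraries these medians were -0.07 and -0.14. Of 8 epithelial markers, 6 had a peak within 1 kb of the start in WT, WT-IFN-γ and FLI1-KO and 5 in FLI1-KO-IFN-γ, where CDH1 was missing, and TP63 and GRHL2 had none in any list. Among markers of other cell types, CD14 and COL1A1 had one in each list, while PTPRC, CD3E, PECAM1 and PDGFRB had none in any.

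With IFN-γ, 5 of the 10 starts went from no listed peak to a listed one in WT cells, while the other 5 were listed already, and 1 start did so in FLI1-KO cells. A peak lay at 5 of the 10 starts in WT, at all 10 in WT-IFN-γ, at 4 in FLI1-KO and at 5 in FLI1-KO-IFN-γ, where MX1 is counted by its upstream start. By the stricter measure of a peak over the canonical start, the counts were 3, 9, 3 and 4 of 10. Among all 19962 protein-coding genes the covered share hardly moved, at 56.2% in WT, 56.8% in WT-IFN-γ, 55.5% in FLI1-KO and 55.03% in FLI1-KO-IFN-γ. A peak that overlapped none in the untreated list is called gained. Gained peaks covered the canonical start of 5 of the 10 genes in WT cells (IFI27, IFI44, XAF1, CMPK2 and MX2), against 1.01% of all protein-coding genes. In FLI1-KO cells they covered 1 of 10 (IFI27), against 0.566%. A canonical start covered in the untreated list cannot be gained. This held in WT for 56.2% of all genes but for 3 of these 10, so the shares have unlike bases.

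**Figure D2:**
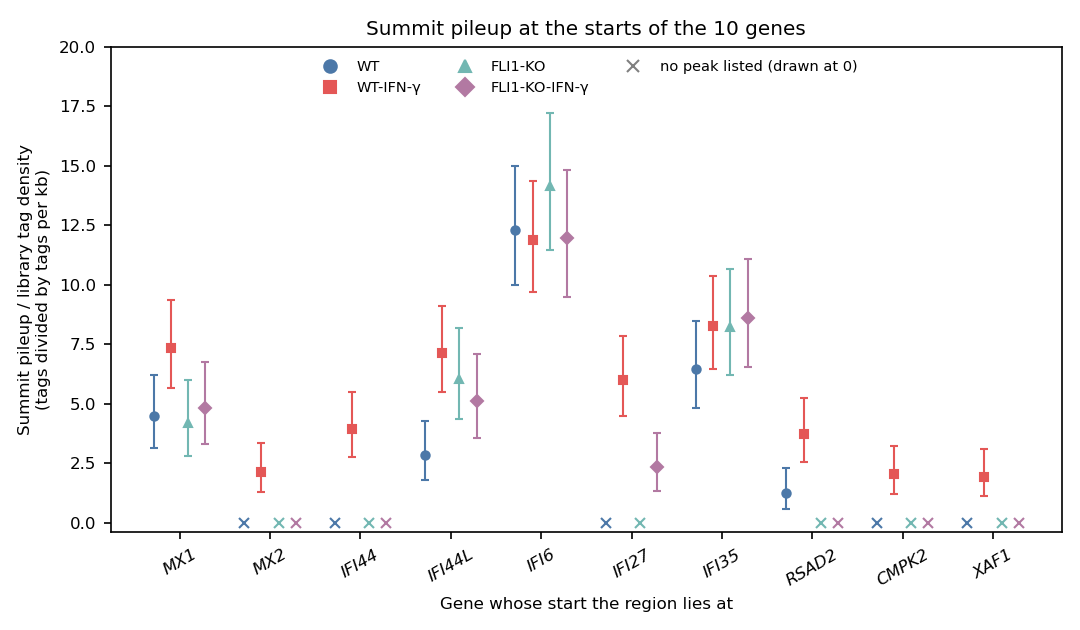
Summit pileup divided by the tag density of the library (tags over tags per kb) at the starts of the 10 genes in the 4 libraries, with 95% Poisson intervals of counting error; a cross at 0 stands for a library without a listed peak. WT-IFN-γ has a peak at all 10 starts, and MX2, IFI44, CMPK2 and XAF1 have one in that library alone.

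MX1 and MX2 lie side by side on chromosome 21, with 10626 bp between the annotated genes. Compared between libraries, the peak at the upstream MX1 start was highest in WT-IFN-γ, and that at the MX2 start was listed there alone. MX2 (ENSG00000183486.14, 41361999 to 41409393) had 3 peaks in WT-IFN-γ and 2 in each of the other lists. Its start was listed only in WT-IFN-γ, with the summit at -91 bp and 19 tags (11.4 to 29.7). The same signal at the depth of FLI1-KO-IFN-γ would be 14.7 tags, where 10 would have been listed. In intron 1, at 4835 bp, MX2 had a region in every list, and WT held 19 tags (11.4 to 29.7), WT-IFN-γ 34 (23.5 to 47.5), FLI1-KO 28 (18.6 to 40.5) and FLI1-KO-IFN-γ 27 (17.8 to 39.3). WT was the lowest of the 4, and the ratio of WT-IFN-γ to WT was 1.63 (0.903 to 3.02), an interval that includes 1. Another region, in intron 7, was again lowest in WT, at 11 tags against 22 in WT-IFN-γ, 18 in FLI1-KO and 26 in FLI1-KO-IFN-γ.

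MX1 (ENSG00000157601.15, 41420020 to 41470071) went from 3 to 4 peaks with IFN-γ in WT cells and from 3 to 2 in FLI1-KO cells. Its strongest region (chr21:41419974-41421153) covered 11 annotated upstream starts, with the WT-IFN-γ summit at -5721 bp from the canonical start at 41426239. WT had 36 tags there (25.2 to 49.8), WT-IFN-γ 65 (50.2 to 82.8), FLI1-KO 29 (19.4 to 41.6) and FLI1-KO-IFN-γ 33 (22.7 to 46.3). WT-IFN-γ held the most tags, and the other 3 libraries overlapped one another. After division by tag density, WT-IFN-γ was 1.64 times WT (1.08 to 2.54), while FLI1-KO-IFN-γ was 1.15 times FLI1-KO (0.677 to 1.96). Between the treated libraries, FLI1-KO-IFN-γ was 0.654 of WT-IFN-γ (0.417 to 1.01), an interval that includes 1. A weak gained peak lay upstream, at -15197 bp, with 11 tags in WT-IFN-γ only (5.49 to 19.7). Toward the 3′ end, a region at 34541 bp had 15 tags in WT-IFN-γ and 19 in each of WT and FLI1-KO and was not listed in FLI1-KO-IFN-γ. The last region, at 41286 bp, had 10 to 16 tags in the 4 libraries and lay within TMPRSS2 as well.

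**Figure D3:**
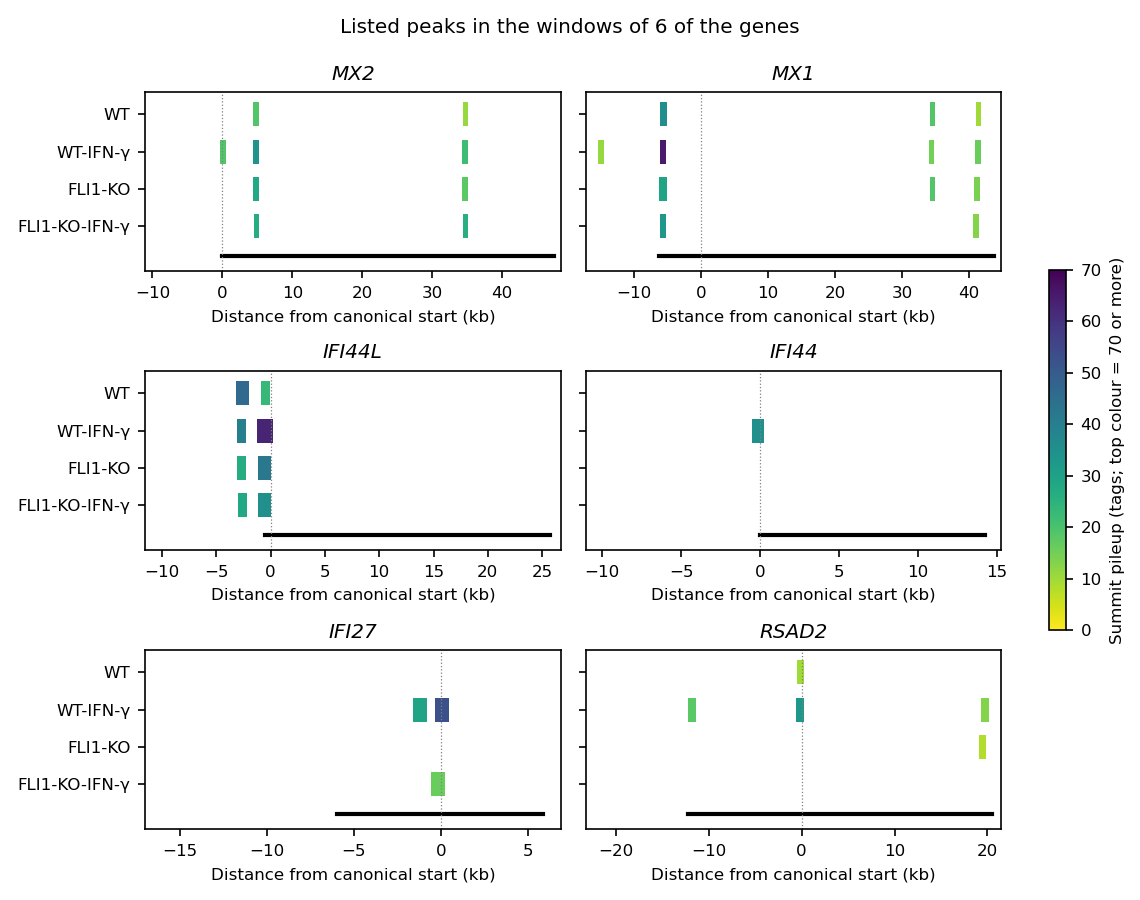
Listed peaks in the windows of MX2, MX1, IFI44L, IFI44, IFI27 and RSAD2 by library, against the distance from the canonical start in kb along the gene. Colour gives the summit pileup in tags, the black bar is the annotated gene and the dotted line its canonical start; peaks narrower than 0.8 kb are drawn 0.8 kb wide so that they can be seen.

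IFI44 and IFI44L are neighbouring, related genes of chromosome 1 whose products restrict some viruses, and they differed in their untreated state. IFI44 (ENSG00000137965.11, 78649796 to 78664078) had no peak in 3 of the lists. In WT-IFN-γ a single peak (chr1:78649498-78649893) lay over the start, with 35 tags (24.4 to 48.7) at a summit -23 bp from it, where 2.91 tags were the local background, and the −log10 q was 23.4. At the depth of FLI1-KO-IFN-γ that signal would be 27.2 tags, where 8 would have been listed.

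IFI44L (ENSG00000137959.17, 78619902 to 78646145) had 2 regions, both in every list. At its start WT had 23 tags (14.6 to 34.5), WT-IFN-γ 63 (48.4 to 80.6), FLI1-KO 42 (30.3 to 56.8) and FLI1-KO-IFN-γ 35 (24.4 to 48.7). WT was lowest and WT-IFN-γ highest, and the FLI1-KO libraries lay between them with overlapping intervals. The ratio of WT-IFN-γ to WT was 2.49 (1.52 to 4.21), that of FLI1-KO to WT was 2.12 (1.25 to 3.69), and that of FLI1-KO-IFN-γ to FLI1-KO was 0.842 (0.522 to 1.35). The log2 response to IFN-γ in FLI1-KO cells minus that in WT cells was -1.57 (-2.51 to -0.62, normal approximation). This was the only one of 9 regions in all lists whose interval left out 0, and the intervals were not adjusted for the number of regions. Position differed as well. The summit was at -174 bp in WT-IFN-γ, 10 bp from the element shown above, and at -432 bp in WT, -572 bp in FLI1-KO and -432 bp in FLI1-KO-IFN-γ. The ratios and the difference above therefore compare the highest point of the region in each library, at different bases, and not the change at a single site. The WT peak ended at -75 bp, short of the canonical start, and the WT-IFN-γ peak ran to 222 bp past it. The other region, at -2701 bp, showed no such rise, and WT held 46 tags there, WT-IFN-γ 40, FLI1-KO 27 and FLI1-KO-IFN-γ 28.

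IFI6, IFI27 and IFI35 covered the range from a start listed in all libraries to one listed only in the treated libraries. IFI6 (ENSG00000126709.16, chromosome 1, 27666064 to 27672212), a small membrane protein that limits cell death, had 1 peak per list, over its start. WT held 99 tags (80.5 to 121), WT-IFN-γ 105 (85.9 to 127), FLI1-KO 98 (79.6 to 119) and FLI1-KO-IFN-γ 82 (65.2 to 102). These were the highest pileups at any of the 10 starts and did not separate the libraries. After division by tag density, the ratios were 0.965 for WT-IFN-γ over WT (0.726 to 1.28) and 0.846 for FLI1-KO-IFN-γ over FLI1-KO (0.623 to 1.15).

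IFI27 (ENSG00000165949.13, chromosome 14, 94104836 to 94116695), of the same protein family as IFI6, had no peak in either untreated list. Over its start lay a peak of 53 tags in WT-IFN-γ (39.7 to 69.3) and one of 16 tags in FLI1-KO-IFN-γ (9.15 to 25.98). It was the only one of the 10 starts gained in both genotypes. After division by tag density, FLI1-KO-IFN-γ reached 0.389 of WT-IFN-γ (0.208 to 0.691). A further gained peak, at -1278 bp with 29 tags (19.4 to 41.6), was in WT-IFN-γ only.

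IFI35 (ENSG00000068079.8, chromosome 17, 43006740 to 43014456), which pairs with the interferon-induced protein NMI, had its start open throughout. WT had 52 tags (38.8 to 68.2), WT-IFN-γ 73 (57.2 to 91.8), FLI1-KO 57 (43.2 to 73.9) and FLI1-KO-IFN-γ 59 (44.9 to 76.1). All intervals overlapped, and the WT-IFN-γ to WT ratio was 1.28 (0.883 to 1.86). The region at -8438 bp sat on the start of RPL27, a ribosomal protein gene, and had 138 to 174 tags in the 4 libraries. The remaining one, at -2690 bp, had 38 tags in WT and 37 in each FLI1-KO library, was not listed in WT-IFN-γ, and was the only peak lost with IFN-γ in WT cells in these windows.

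RSAD2 and CMPK2 are read in opposite directions on chromosome 2, with canonical starts 11870 bp apart, and both starts had their highest or only peak in WT-IFN-γ. RSAD2 (ENSG00000134321.13, 6865557 to 6898239) went from 1 to 3 peaks with IFN-γ in WT cells and from 1 to 0 in FLI1-KO cells. Over its canonical start lay 10 tags in WT (4.80 to 18.4) and 33 in WT-IFN-γ (22.7 to 46.3), and neither FLI1-KO list had a peak. WT-IFN-γ was 3.00 times WT after division by tag density (1.45 to 6.83). At the depth of FLI1-KO-IFN-γ the WT-IFN-γ signal would be 25.6 tags against a limit of 8, while the WT signal would be 8.53 tags, close to that limit. A weak region in exon 6, at 19582 bp, had 13 tags in WT-IFN-γ (6.92 to 22.2), where it was gained, and 8 in FLI1-KO (3.45 to 15.8).

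CMPK2 (ENSG00000134326.12, 6840570 to 6866635) had a single peak in a single list. In WT-IFN-γ it covered the start and exon 1 with the summit at 44 bp and 18 tags (10.7 to 28.4), and the elements shown above lay past the start, at 74 to 132 bp. An annotated transcript of RSAD2 begins nearby, so the peak was inside the RSAD2 window too and counts among its 3 peaks. At the depth of FLI1-KO-IFN-γ it would be 13.97 tags, where 7 would have been listed.

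XAF1 (ENSG00000132530.17, chromosome 17, 6755447 to 6775647), which opposes the apoptosis inhibitor XIAP, had different regions in the 2 genotypes. Its start was listed in WT-IFN-γ only, with the summit at -49 bp and 17 tags (9.90 to 27.2). Upstream, at -3360 bp, both FLI1-KO libraries and neither WT library listed a region, with 16 tags in FLI1-KO (9.15 to 25.98) and 19 in FLI1-KO-IFN-γ (11.4 to 29.7). Shared regions within 5 Mb of XAF1 were also lower in FLI1-KO-IFN-γ than in WT-IFN-γ, with a median log2 ratio of -0.18 over 341 regions against -0.02 over all regions. Without IFN-γ it was -0.20 over 338 regions, against 0.05. Around the other 9 genes the median of the treated pair was between -0.01 and 0.10. Its part in the missing XAF1 start peak was not tested.

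Counted together, IFN-γ in WT cells was followed by 8 gained peaks of 19 in the windows (42.1%, 23.1 to 63.7%). Of all WT-IFN-γ peaks 25.2% were gained, a share inside that interval. They belonged to 7 of the 10 genes, all but IFI44L, IFI6 and IFI35, whose starts were already listed in WT. MX1 and RSAD2, with a start listed in WT too, gained theirs elsewhere, at -15197 bp of MX1, in exon 6 of RSAD2 and at the CMPK2 start inside the RSAD2 window. Of all protein-coding genes 32.0% had such a peak in the same kind of window, and of the 9848 with windows as long as these 23.5% did. Only 1 of 12 WT peaks was lost, against 15.9% of all. Of 11 regions listed in both libraries, 2 were at least 2-fold higher in WT-IFN-γ (IFI44L and RSAD2 starts), against 1.80% of all such regions, and 0 were at least 2-fold lower, against 0.914%. Their median log2 ratio was 0.54, against -0.07 over all 49895 regions, and 7 of the 11 were above 0, as were 40.6% of all. This median fell to 0.15 with a −log10 q of at least 5 and, separately, with windows of 10 kb on both sides.

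In FLI1-KO cells IFN-γ was followed by 1 gained peak of 12, at the IFI27 start, against 18.0% of all FLI1-KO-IFN-γ peaks. By gene this was 1 of 10, against 22.9% of all protein-coding genes and 15.0% of those with windows of like length. Of 13 FLI1-KO peaks 2 were lost, against 22.2% of all, 1 in MX1 at 34541 bp and 1 in exon 6 of RSAD2. Among 11 shared regions 0 were at least 2-fold higher, against 0.212% of all, and 0 were at least 2-fold lower, against 0.510%. The median log2 ratio was 0.02, against -0.14 over all 48600 regions, and 6 of the 11 were above 0, as were 33.6% of all.

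**Figure D4:**
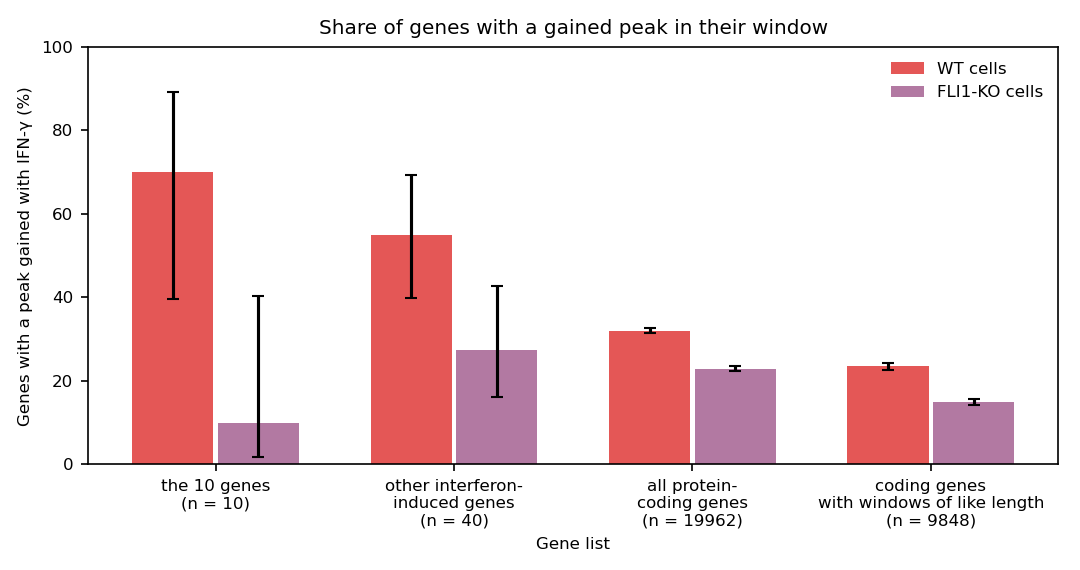
Share of genes (%) with a peak gained with IFN-γ in the gene body or the 10 kb upstream, in WT and FLI1-KO cells, for the 10 genes, 40 other interferon-induced genes, all protein-coding genes and those with windows of like length. Bars start at 0 and lines are 95% Wilson intervals; the 10 genes stand at 70% in WT cells and 10% in FLI1-KO cells.

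Between the treated libraries, 5 of the 10 starts were listed in WT-IFN-γ and not in FLI1-KO-IFN-γ. Of all protein-coding genes, 1.55% had the canonical start under such a WT-IFN-γ peak. Of 19 WT-IFN-γ peaks 9 had no counterpart in FLI1-KO-IFN-γ (47.4%, 27.3 to 68.3%), against 29.0% of all of them, a share inside that interval. The starts among the 9 were those of MX2, IFI44, RSAD2, CMPK2 and XAF1. In the other direction, 2 of 12 FLI1-KO-IFN-γ peaks had no counterpart in WT-IFN-γ, against 19.8% of all. Of 10 shared regions 1 was at least 2-fold lower in FLI1-KO-IFN-γ (the IFI27 start), against 3.31% of all, and 0 were at least 2-fold higher, against 2.96%. The median log2 ratio of the 10 was 0.02, against -0.02 over all regions. Without IFN-γ, 1 of 12 WT peaks lacked a FLI1-KO counterpart, against 21.4% of all, and 2 of 13 FLI1-KO peaks lacked a WT one, against 25.3%. Of 11 shared regions 1 was at least 2-fold higher in FLI1-KO (the IFI44L start), against 4.11% of all, and 0 were at least 2-fold lower, against 1.89%. Their median log2 ratio was 0.30, against 0.05 over all regions.

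**Figure D5:**
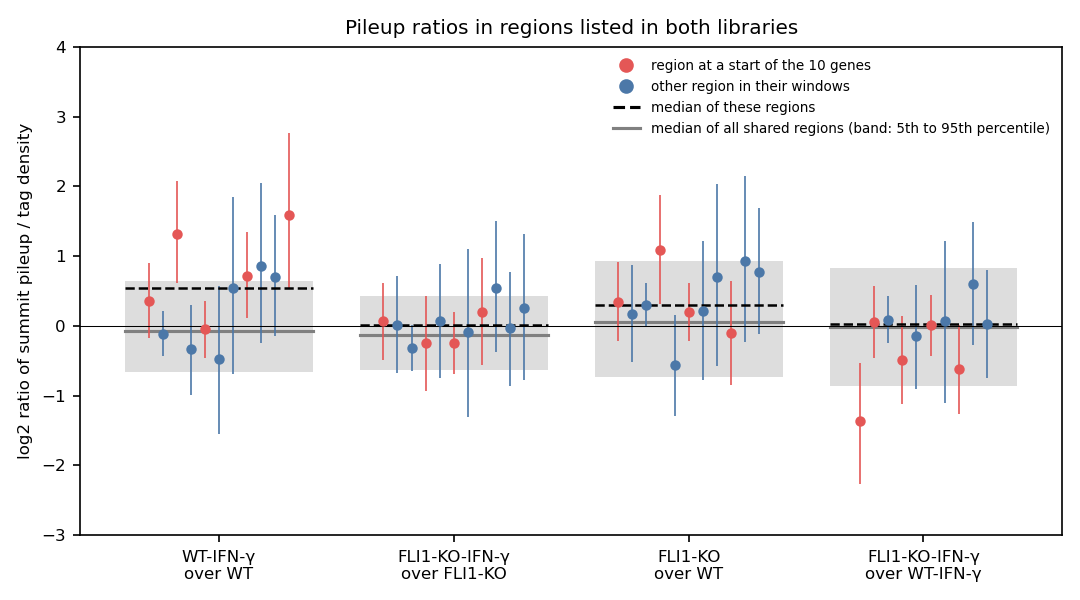
log2 ratio of summit pileup over tag density for regions in the windows that are listed in both libraries of a comparison, with 95% exact conditional binomial intervals. Grey bands span the 5th to 95th percentile of all shared regions; in WT-IFN-γ over WT the IFI44L and RSAD2 starts stand at 1.32 and 1.59, above the band.

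Depth was set against each unlisted peak, which does not show whether an unlisted site was closed. The 21 regions in 4 libraries gave 56 listed pairs and 28 unlisted ones. For the unlisted pairs, the signal of each library that did list the region was scaled to the depth and background of the one that did not, and in 40 of 40 such lookups it reached the listing limit. In 11 of the 40 it was under 1.5 times the limit, among them the MX2 start in both FLI1-KO libraries and all lookups at the RSAD2 exon 6 and MX1 -15197 bp regions, and at such a strength counting error can keep a peak off a list.

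A list of 40 other interferon-induced genes was examined in the same way. In WT cells 22 of the 40 (55%, 39.8 to 69.3%) had a gained peak in their window, against 32.0% of all protein-coding genes. In FLI1-KO cells 11 did (27.5%, 16.1 to 42.8%), against 22.9%, a share inside that interval. Their starts differed from those of the 10 genes in the untreated state, since 32 of 40 canonical starts were already covered in WT and 38 in WT-IFN-γ. A gained peak covered 6 of the 40 starts in WT cells and 1 in FLI1-KO cells, against 1.01% and 0.566% of all protein-coding genes. The most significant gained peaks were those of OAS2, TRIM22, OAS1, DHX58, IFIT2 and IFIT3, genes of viral RNA sensing and restriction. OAS1 (45 tags), TRIM22 (95 tags) and IFIT3 (60 tags) had no peak at that place in FLI1-KO-IFN-γ. OAS2 had 87 tags in WT-IFN-γ and 18 in FLI1-KO-IFN-γ, which was 0.267 of WT-IFN-γ after division by tag density (0.151 to 0.446). IFIT2 had 48 and 14 tags, a ratio of 0.376 (0.191 to 0.693). DHX58 had 71 and 26, a ratio of 0.472 (0.289 to 0.749), and it alone of these 3 was already listed in untreated FLI1-KO, with 19 tags. The 6 genes were picked by the strength of a peak gained in WT-IFN-γ, which by itself favours low ratios. Outside the 6, where both treated libraries listed the peak, SAMD9L had 0.460 (0.199 to 0.976), OASL 0.586, EPSTI1 0.644, PNPT1 0.761 and PLSCR1 0.896. ISG20 had 1.36 and DDX60 1.68, and all these intervals but that of SAMD9L included 1.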

How the data were processed

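Chromatin accessibility had been measured by ATAC-seq in HK1 cells of 4 groups with 1 deposited peak list each. The methods section describes trimming (Trimmomatic), alignment to GRCh38 (Bowtie2 2.3.4.1) and removal of duplicates and poorly mapped reads, after which the authors called peaks with MACS2 2.1.2. The largest q in a list was 0.0499. A reproducibility filter (IDR) is named, but whether the deposited lists precede it, or pool replicates, is not stated, nor is any shift of tag ends for the transposase. In the deposited lists the authors gave each peak a score, a fold enrichment, a −log10 p and a −log10 q at the summit. The summit offset was deposited too.

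For 100% of peaks a whole-number pileup gave the deposited −log10 p to within 0.0008, with the background implied by the fold. The lowest background of a list over its shortest peak gave the tag density, which depends on the genome size given to MACS2 and serves only for comparison. An overlap of 1 bp or more made peaks shared. Regions were named by the WT-IFN-γ summit or, where it had none, that of the library with the most tags. Ratios took the highest summit of each library in the region, so the bases compared can differ. Pileups have exact Poisson intervals, shares Wilson intervals and ratios exact conditional binomial intervals. Without molecular identifiers, these cover counting error only. Genes, exons and canonical starts came from GENCODE 44, promoters from RefSeq (GRCh38.p14).

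The 10 genes, the lists and the windows were chosen with earlier results of these data known. Named in full were the region at each start and every gained region, the others by range and count, and 6 of the 40 other genes by −log10 q of their gained peak. The motif search, the counts of covered canonical starts, the ratios of the other genes and the depth lookups were added after values had been seen. The stretch of 1 gene and 1 marker are not reported here. Alternatives were a −log10 q of at least 5, overlap of 50% of the shorter peak, windows with 3 kb upstream or 10 kb on both sides, and scaling by peaks shared by all lists. Pileup recovery, overlap counting and motif search were tested on simulated data. Calculations used scipy 1.17.1, pandas 2.3.3 and numpy 2.4.6 and plots matplotlib 3.10.9, under Python 3.11.15.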

Additional observations from a re-analysis of the deposited data

Results flagged for a closer look

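Several values moved in opposite directions with IFN-γ in the 2 genotypes. With 1 library per group these differences were not tested, and genotype, treatment and single preparation cannot be told apart. The number of peaks in the windows of the 10 genes changed by 7 in WT cells and by -1 in FLI1-KO cells. At RSAD2 the changes were 2 and -1, and at MX1 1 and -1.

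Among regions listed in all 4 libraries, the IFI44L start changed by 1.32 on the log2 scale in WT cells and by -0.25 in FLI1-KO cells. Its interval for the difference did not include 0, but the summits compared lay at different bases of the region. The change in FLI1-KO cells taken alone was a ratio of 0.842 (0.522 to 1.35), an interval that includes 1. Promoters of the 10 genes active in all cells had a median of -0.28 in that comparison. The MX2 intron 1 region changed by 0.70 and -0.037, the MX1 region at 41286 bp by 0.54 and -0.092, and the IFI44L region at -2701 bp by -0.34 and 0.068. The intervals of counting error for the difference included 0 at these 3 regions, and all 3 changes in FLI1-KO cells lie above the median of all shared regions there, -0.14.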

How the results depend on the processing

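Of 60 alternative values for 16 results, 55 kept a count to 1.5 times or a median to its pooled counting error, 5 moved and 0 reversed. With a −log10 q of at least 5 in every list, 1 peak was lost in FLI1-KO cells in place of 2, and 0 WT peaks lacked a FLI1-KO counterpart in place of 1. The median log2 ratio of WT-IFN-γ over WT fell to 0.15 at that limit and also in windows with 10 kb on both sides, where 4 peaks were lost in FLI1-KO cells, so this median rests on weak regions and on the window. Gained peaks in WT cells numbered 7 to 12 and their genes 6 to 10 over the alternatives, and in FLI1-KO cells 1 peak of 1 gene was gained under each of them. The 12 peaks and 10 genes came from windows with 10 kb on both sides, which held 26 WT-IFN-γ peaks in place of 19. Shares over all peaks and genes are not given for the alternatives, so these counts have no background beside them. No library could be left out, since each group holds 1, and no paired analysis was possible because a pair would be a single library per group. Absence from a list is not shown to be a closed site in any lookup, since each scaled an observed pileup without its counting error. This holds most for the 11 lookups under 1.5 times the listing limit.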
